A study of Mus musculus with 2 samples.

Results

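The interferon system was examined as a set of 38 genes among the 23183 genes of the deposited tables, in 1 library of KPR- cells and 1 library of KPRrestored cells. The genes were chosen by symbol: 4 interferon receptor subunits, 5 sensors and adaptors of foreign nucleic acid, 7 transcription factors of the IRF and STAT families, and 22 effectors. All 38 symbols were found in both tables. KPR- cells are an immortalized line from lung cancers of mice with the alleles *Runx3* flox/FSF, *K-Ras* LSL-G12D/+, Flp ERT2, Tomato* (a fluorescent tracer) and *p53* flox/flox, which had inhaled an adenovirus carrying Cre under the CMV promoter. Cre switched on oncogenic *K-Ras* and removed *p53* and the floxed *Runx3* allele, and a Frt-Stop-Frt cassette kept the other *Runx3* allele off, so both libraries come from cells with activated *K-Ras* and deleted *p53*. In KPRrestored cells, 4-hydroxytamoxifen (4-OHT) activates the Flp recombinase, which takes the cassette out. The sample records give the genotypes *RUNX3* -/- and *RUNX3* -/+, place the libraries at 0 h and 16 h, and list 1 μM 4-OHT for both, so the records do not say how the 0 h culture was handled. Whether the line is 1 clone is not given in the sources used here.

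With 1 library per group there is no replicate check on any difference, and hours in culture, 4-OHT and *Runx3* cannot be told apart. The tables give FPKM, the fragments of a gene scaled to its transcript length and to the sequencing depth, so levels of different genes can be set side by side. *Runx3* had 0.348 FPKM in the library labelled KPR- and 0.349 FPKM in the library labelled KPRrestored (about 28 and 29 fragments). This value does not check the labels, so higher and lower refer throughout to the library labelled KPRrestored relative to the library labelled KPR-. The epithelial markers *Krt8*, *Krt18*, *Krt19*, *Epcam*, *Cdh1* and *Cldn4* had between 91.6 and 1931 FPKM. Of the alveolar and airway markers, *Sftpc*, *Sftpb*, *Sftpa1* and *Scgb1a1* were listed at 0 in both libraries and *Nkx2-1* had 0.0444 and 0.0216 FPKM, while *Abca3* had 18.2 and 14.6 FPKM. The 9 leukocyte markers summed to 2.81 and 1.66 FPKM, of which *Csf1r* made up 2.68 and 1.19, and *Laptm5*, *Tyrobp*, *Adgre1*, *Lyz2* and *Cd3e* were listed at 0 in both. The 5 endothelial markers summed to 1.16 and 2.22 FPKM, mostly *Kdr* (1.10 and 2.05), and the 6 fibroblast markers to 12.7 and 5.33 FPKM, mostly *Col1a1* (12.2 and 4.21).

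Cells sense viral RNA through the helicases RIG-I, MDA5 and LGP2 and cytosolic DNA through cGAS and STING, and pass the signal to IRF3 and IRF7, which switch on the genes of type I interferons. Secreted interferon binds its receptor on the same or neighbouring cells, and JAK kinases there phosphorylate STAT proteins. Complexes of STAT proteins with IRF9 bind the interferon-stimulated response element (ISRE), and STAT dimers bind the gamma-activated site (GAS). The interferon-stimulated genes so induced encode proteins that block steps of the viral life cycle, such as the IFIT, IFITM, OAS and MX families, along with more sensors and factors of the same pathway.

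The upstream parts of this pathway were transcribed in both libraries. Of the 22 effectors, 14 had a mean FPKM under 1, beside 11952 of all 23183 genes. A gene was counted as expressed when the mean of its 2 FPKM values was at least 1, which held for 48.4% of all genes. All 4 receptor subunits, 3 of the 5 sensors and adaptors and 6 of the 7 transcription factors were expressed, 13 of 16 (81.25%) in all. Of the effectors, 8 of 22 (36.4%) were expressed. The median level of the effectors was 0.291 FPKM in KPR- and 0.357 FPKM in KPRrestored, against 12.2 and 12.6 FPKM for the 16 upstream genes. All genes had medians of 0.702 FPKM in KPR- and 0.709 FPKM in KPRrestored. 0 members were listed at 0 in both libraries, and the 5 that were listed at 0 in one of them (*Ifitm1*, *Oas1a*, *Oas2*, *Mx1* and *Mx2*) are all effectors. Of all 23183 genes, 6675 were listed at 0 in both libraries and 1634 in one of them.

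**Figure D1:**
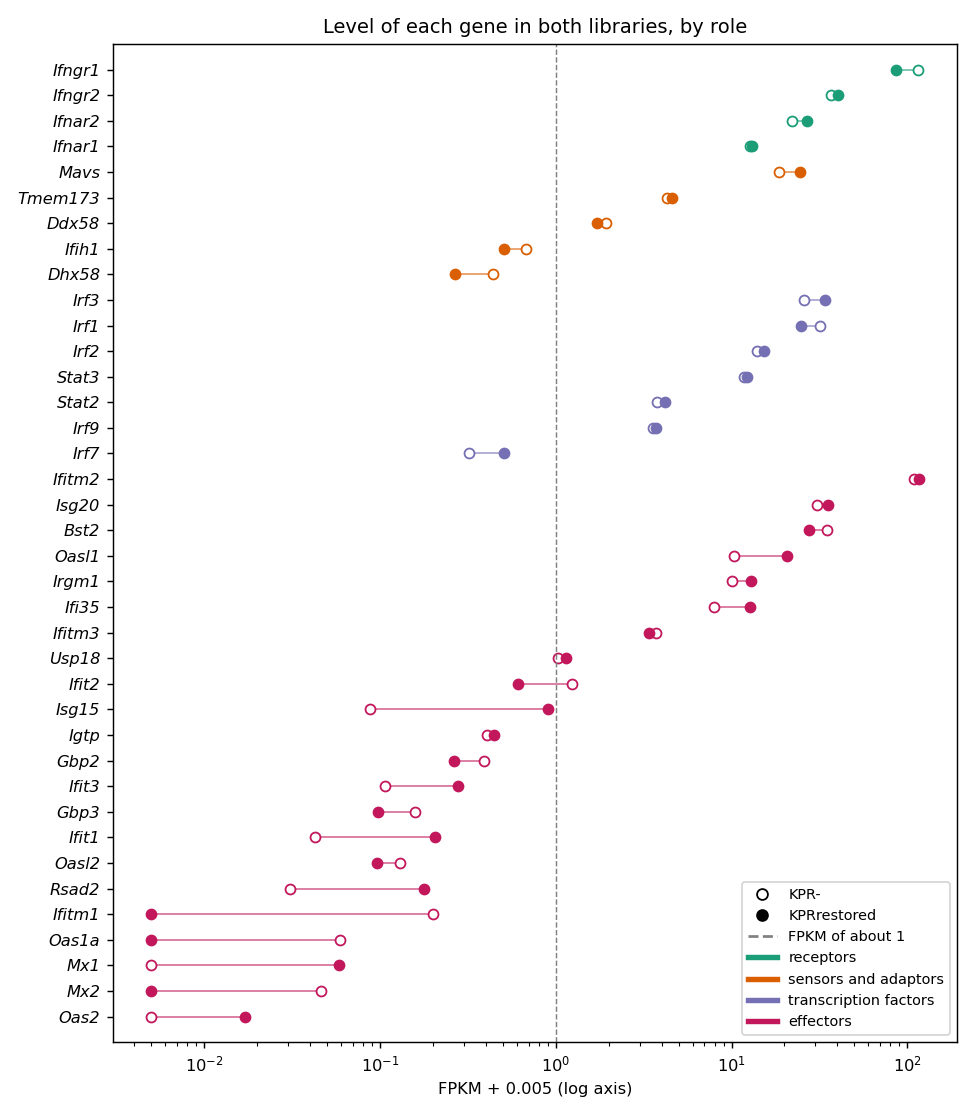
FPKM + 0.005 of the 38 genes on a log axis, with open circles for the KPR- library, filled circles for the KPRrestored library and colors for the roles; the dashed line marks an FPKM of about 1. The receptors lie between 12.7 and 116 FPKM, whereas the effectors spread from 0 (plotted at 0.005) to 117 FPKM.

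Between the libraries, 2 of the 21 expressed members passed a log2 difference of 0.5, the effectors *Oasl1* and *Ifi35*, both higher in the library labelled KPRrestored. The difference is log2(FPKM + 0.005) in KPRrestored minus that in KPR-. Among all 11231 expressed genes, 12.1% were higher and 9.29% were lower by as much. The expressed members had a median difference of 0.13, with 16 above and 5 below 0. All expressed genes had a median of 0.0086 with quartiles of -0.23 and 0.27, with 5728 above and 5503 below 0. The differences of the members ran from -0.42 (*Ifngr1*) to 0.99 (*Oasl1*).

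The counting error behind each value was estimated from the steps that whole fragments leave in low FPKM values. The fit gave a scale, called depth here, of 21.9 M fragments for KPR- and 22.45 M for KPRrestored. Exact 95% Clopper-Pearson intervals of the log2 ratio were computed from the estimated fragments, and they cover counting error only. Of the 33 members whose estimates summed to at least 10 fragments, 11 had an interval wholly above 0, 4 had one wholly below 0 and 18 had one that held 0. Among all 13025 genes with as many fragments, 30.6% had an interval above 0 and 29.9% below 0.

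**Figure D2:**
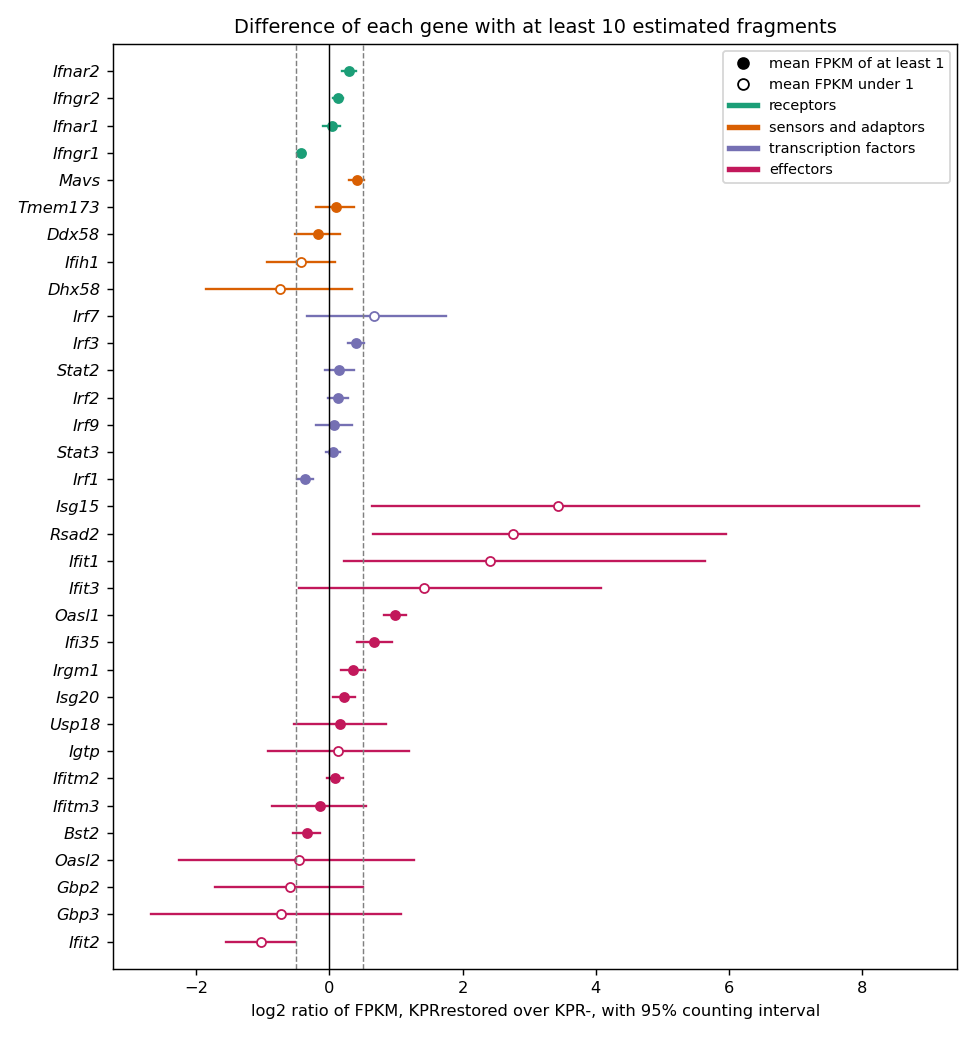
Log2 ratio of FPKM, KPRrestored over KPR-, of the 33 genes with at least 10 estimated fragments, with the 95% counting interval as a bar; filled points have a mean FPKM of at least 1, open points less, and dashed lines mark -0.5 and 0.5. The intervals are narrow for genes of many fragments, such as *Ifngr1* (-0.49 to -0.36), and wide for genes of few, such as the effector *Isg15* (0.64 to 8.85), the factor *Irf7* (-0.34 to 1.75) and the sensor *Dhx58* (-1.85 to 0.34).

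The receptors showed small differences in both directions. *Ifngr1*, the ligand-binding subunit of the interferon gamma receptor, was the most abundant of them, with 116 FPKM in KPR- and 86.1 FPKM in KPRrestored. Its difference of -0.42 was the lowest of all expressed members, with an interval of -0.49 to -0.36. *Ifngr2*, the partner subunit, had 36.8 and 40.3 FPKM, a difference of 0.13. *Ifnar1*, which together with *Ifnar2* forms the receptor of type I interferons, had 12.7 and 13.0 FPKM, a difference of 0.03 with an interval that held 0. *Ifnar2* had 22.0 and 27.0 FPKM, a difference of 0.30. The order *Ifngr1*, *Ifngr2*, *Ifnar2*, *Ifnar1* was that of both libraries.

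The kinases bound to these receptors were expressed as well. *Jak1*, which serves both receptors, had 24.99 FPKM in KPR- and 22.4 FPKM in KPRrestored. *Jak2*, the second kinase of the interferon gamma receptor, had 20.6 and 16.8 FPKM, a difference of -0.29. *Tyk2*, the second kinase of the type I receptor, had 5.06 and 6.18 FPKM, a difference of 0.29. The intervals of *Jak1* and *Jak2* lay below 0 and that of *Tyk2* above 0, and all 3 differences were within the threshold. Under the shortest coding transcripts, the intervals of *Jak1* (-0.55 to 0.24) and *Tyk2* (-0.02 to 0.59) held 0. The feedback inhibitors *Socs1*, *Socs3* and *Ptpn2* had differences of -0.03, -0.18 and 0.10.

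No interferon gene reached the level of an expressed gene. Of 18 ligand genes, 13 were listed at 0 in both libraries, among them all 11 interferon alpha genes examined (*Ifnab* included) and the interferon lambda genes *Ifnl2* and *Ifnl3*. *Ifnb1*, the interferon beta gene, was listed at 0 in KPR- and had 0.160 FPKM in KPRrestored, from about 2 fragments. *Ifng* was listed at 0 in KPR- and had 0.0446 FPKM in KPRrestored, from about 1 fragment. *Ifnz* was listed at 0 in KPR- and had 0.107 FPKM in KPRrestored, from about 3 fragments. *Ifne* had 0.200 and 0.0985 FPKM, and *Ifnk* had 0.0745 FPKM in KPR- and was listed at 0 in KPRrestored. The 18 genes together held about 3 fragments in KPR- and 7 in KPRrestored, too few to show a difference at this depth.

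The sensors of viral RNA were at low levels, and the adaptors below them were higher. *Ddx58*, which encodes RIG-I, had 1.92 FPKM in KPR- and 1.71 FPKM in KPRrestored. *Ifih1*, which encodes MDA5, had 0.672 and 0.501 FPKM, and *Dhx58*, which encodes LGP2, had 0.436 and 0.262 FPKM. All 3 values were lower in the library labelled KPRrestored, and the interval of each held 0 (-0.51 to 0.17, -0.93 to 0.09 and -1.85 to 0.34). *Mavs*, the mitochondrial adaptor of RIG-I and MDA5, had 18.5 and 24.7 FPKM, a difference of 0.41 with an interval of 0.30 to 0.52. *Tmem173*, which encodes the DNA pathway adaptor STING, had 4.28 and 4.57 FPKM, and its interval of -0.20 to 0.38 held 0.

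Other sensing genes, taken from a list of 11 of which 10 were expressed, included 2 higher and 0 lower by 0.5 or more, against 12.1% and 9.29% of all expressed genes. *Ticam1*, the adaptor of the double-stranded RNA receptor TLR3, had 3.26 FPKM in KPR- and 5.44 FPKM in KPRrestored, a difference of 0.74. *Aim2*, a DNA sensor of the inflammasome, had 10.1 and 15.3 FPKM, a difference of 0.60. *Tlr3* itself had 2.70 and 2.42 FPKM, and *Mb21d1*, which encodes cGAS, had 2.32 and 1.94 FPKM. The kinases that phosphorylate IRF3, *Tbk1* and *Ikbke*, had differences of -0.12 and 0.36. The interval of *Ikbke* was 0.23 to 0.49, but -0.03 to 0.77 under its shortest coding transcript.

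Of the transcription factors, *Irf3* had an interval above 0 and *Irf1* one below 0, both within the threshold, and the intervals of the other 5 held 0. The lower limit was -0.01 for *Irf3* under its shortest coding transcript and 0.02 for *Irf2* under the longest transcript of any kind, so both calls depend on the length taken. *Irf3*, which is made before infection and activated by phosphorylation, had 25.9 FPKM in KPR- and 34.2 FPKM in KPRrestored, a difference of 0.40 with an interval of 0.29 to 0.52. *Irf1*, an interferon gamma-induced activator, had 31.9 and 24.8 FPKM, a difference of -0.36 with an interval of -0.48 to -0.25. *Irf2*, which competes with IRF1 for its sites, had 14.0 and 15.4 FPKM, a difference of 0.13. These 3 were the highest IRF genes of the set in both libraries, with *Irf1* above *Irf3* in KPR- and *Irf3* above *Irf1* in KPRrestored. *Irf7*, itself an interferon-stimulated gene and an amplifier of interferon alpha transcription, had 0.315 and 0.502 FPKM (about 14 and 23 fragments), and its interval of -0.34 to 1.75 held 0.

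*Stat2* and *Irf9*, which act together at the ISRE, stood at similar levels. *Stat2* had 3.77 FPKM in KPR- and 4.19 FPKM in KPRrestored, a difference of 0.15. *Irf9* had 3.55 and 3.73 FPKM, a difference of 0.07. The counting intervals of both differences held 0. *Stat3*, the factor of interleukin 6 type cytokines, had 11.7 and 12.2 FPKM, a difference of 0.06 that also held 0.

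Among the effectors, *Oasl1* and *Ifi35* were the expressed genes past the threshold. *Oasl1*, a 2'-5' oligoadenylate synthetase-like gene that restrains translation of IRF7, lies on chromosome 5 of GRCm38 (114923240 to 114937915, plus strand). It had 10.4 FPKM in KPR- and 20.6 FPKM in KPRrestored, from about 447 and 910 fragments, a difference of 0.99 with an interval of 0.82 to 1.16. *Ifi35* lies on chromosome 11 (101448407 to 101458698, plus strand) and encodes a leucine zipper protein of the cytosol. It had 7.97 and 12.7 FPKM, from about 200 and 327 fragments, a difference of 0.67 with an interval of 0.42 to 0.93. An antisense gene covers 16.8% of its exonic bases, and whether the counting used the strand is not given in the sources used here.

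The other 3 OAS genes of the set were near 0 in both libraries. *Oasl2* had 0.125 and 0.0910 FPKM, from about 8 and 6 fragments. *Oas1a*, which shares 40.9% of its 100-base windows with *Oas1g*, was listed at 0 in KPRrestored against 0.0544 FPKM (about 2 fragments) in KPR-, and *Oas2* was listed at 0 in KPR- and had 0.0121 FPKM in KPRrestored from about 1. *Oasl1* thus carried 447 of about 457 fragments of these 4 genes in KPR- and 910 of about 917 in KPRrestored.

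The IFITM family, membrane proteins that hinder the fusion of viruses with cells, held the most abundant effector. *Ifitm2* had 109 FPKM in KPR- and 117 FPKM in KPRrestored, a difference of 0.09 with an interval that held 0. Of its 100-base windows, 34.9% also occur in transcripts of other genes, so its level is less certain than its fragments imply. *Ifitm3* had 3.73 and 3.37 FPKM, and *Ifitm1* was listed at 0 in KPRrestored against 0.195 FPKM (about 3 fragments) in KPR-. *Ifitm2* thus stood far above both of its neighbours on chromosome 7 in either library.

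3 further expressed effectors had intervals that did not hold 0, all within the threshold. *Isg20*, an exonuclease of RNA, had 30.4 FPKM in KPR- and 35.4 FPKM in KPRrestored, a difference of 0.22. *Irgm1*, a GTPase of vacuole defense and autophagy, had 10.0 and 12.8 FPKM, a difference of 0.36. *Bst2*, which encodes tetherin, a membrane anchor of budding virus particles, had 34.9 and 27.6 FPKM, a difference of -0.34. The other GTPases, *Gbp2*, *Gbp3* and *Igtp*, lay between 0.0928 and 0.441 FPKM, and the interval of each held 0.

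**Figure D3:**
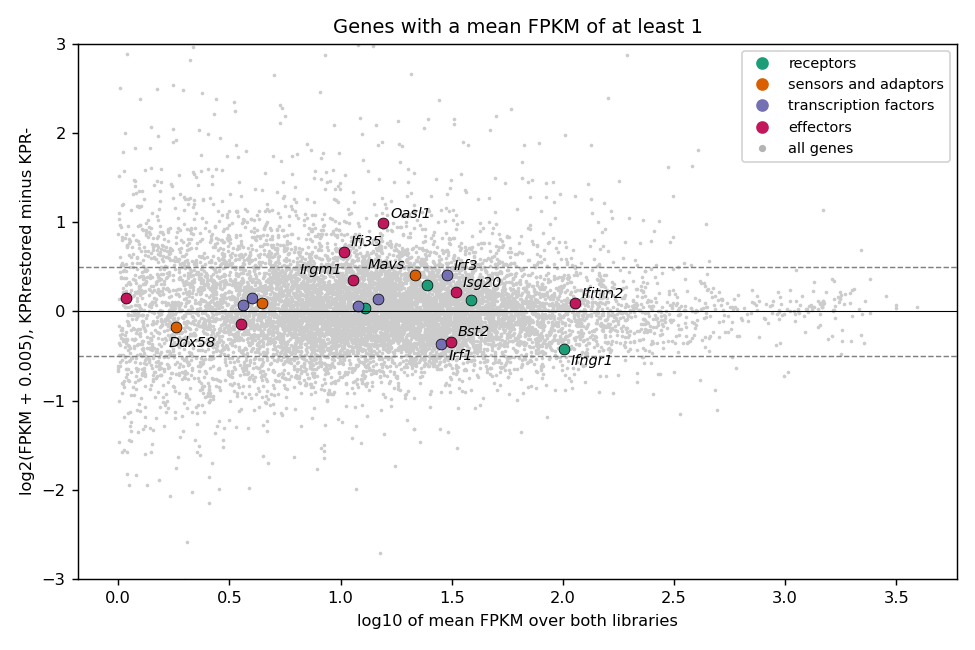
Difference of log2(FPKM + 0.005), KPRrestored minus KPR-, against the log10 of the mean FPKM, for all expressed genes (gray) and the 21 members among them (colored by role); dashed lines mark -0.5 and 0.5, and genes past 3 either way are outside the axis. *Oasl1* (0.99) and *Ifi35* (0.67) are the members outside the dashed lines, and the rest lie within the bulk of genes.

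The 14 effectors under a mean FPKM of 1 differed among themselves in direction. Between the libraries, 7 had more estimated fragments in KPRrestored and 7 had fewer, and together they held about 163 fragments in KPR- and 140 in KPRrestored. Of the 9 with at least 10 fragments, 3 had an interval above 0 (*Isg15*, *Ifit1* and *Rsad2*) and 1 had an interval below 0 (*Ifit2*). The first 3 had about 1, 2 and 2 fragments in KPR- and 11, 11 and 14 in KPRrestored. They thus passed the filter of 10 fragments only through the library in which they are higher. Among all 2236 genes with a mean FPKM under 1 and as many fragments, 12.2% had an interval above 0 and 14.4% below 0.

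*Isg15*, a ubiquitin-like protein that is joined to other proteins, lies on chromosome 4 (156199424 to 156200818, minus strand). It had 0.0832 FPKM in KPR- and 0.900 FPKM in KPRrestored, from about 1 and 11 fragments, with an interval of the log2 ratio of 0.64 to 8.85. *Rsad2*, which encodes the antiviral enzyme viperin, had 0.0256 and 0.174 FPKM, from about 2 and 14 fragments, with an interval of 0.65 to 5.95. *Ifit1*, which binds viral RNA that lacks the host cap methylation, had 0.0376 and 0.201 FPKM, from about 2 and 11 fragments, with an interval of 0.23 to 5.64. All 3 were higher in the library labelled KPRrestored and below an FPKM of 1 in both.

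*Ifit2*, next to *Ifit1* and *Ifit3* on chromosome 19, went the other way. It had 1.23 FPKM in KPR- and 0.605 FPKM in KPRrestored, from about 97 and 49 fragments, and its interval was -1.55 to -0.51. If its shortest coding transcript is taken instead, these were about 13 and 7 fragments, and the interval of -2.49 to 0.50 held 0. The interval of *Ifit3*, at 0.102 and 0.273 FPKM (about 3 and 9 fragments), held 0 at -0.45 to 4.07, and 31.7% of its 100-base windows also occur in *Ifit3b*. The 3 genes of this cluster together had about 102 fragments in KPR- and 69 in KPRrestored. *Mx1* and *Mx2*, GTPases that trap viral nucleocapsids, had 2 and 3 fragments between them in the KPR- and KPRrestored libraries.

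The enzymes that attach and remove ISG15 had smaller differences than *Isg15*, in both directions. *Usp18*, which removes ISG15 and inhibits the type I receptor, had 1.02 FPKM in KPR- and 1.14 FPKM in KPRrestored, and its interval of -0.53 to 0.85 held 0. *Uba7*, the activating enzyme, had 0.604 and 0.556 FPKM, and *Herc6*, the ligase of mouse cells, had 0.992 and 0.919 FPKM. *Ube2l6*, the conjugating enzyme, had 4.69 and 6.35 FPKM, a difference of 0.44 with an interval of 0.12 to 0.77. *Isg15* itself, a short transcript, had fewer fragments than any of these 4 genes in both libraries. By FPKM it was below all 4 in KPR-. In KPRrestored its 0.900 FPKM was above *Uba7* and close to *Herc6*.

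The promoters are shown because the effectors share letters there. The genes were chosen by symbol, without use of their promoters. Yet the effectors are interferon-stimulated genes, a class induced through ISRE and GAS sites. A high share of these letters among them is therefore in part given by the choice. Windows from 250 bases before to 50 bases after the transcription start (RefSeq, GRCm38.p6) were found for 32 of the 38 genes and searched on both strands. These genes had 38 windows, and in 28 of them the bases right after the start occur in a GENCODE transcript of the gene. The window of *Bst2* is not among the 28, so its positions rest on the RefSeq start. The ISRE was searched as 2 runs of GAAA with any 2 bases between them, the GAS as TTCNNNGAA and the RUNX motif as TGTGGT. The ISRE letters were in a window of 12 of 18 effectors (66.7%) and of 4 of 14 upstream genes (28.6%), against 3.99% of all 27025 genes with a window. The GAS letters were in a window of 7 effectors (38.9%) and 4 upstream genes (28.6%), against 9.55% of all genes. The RUNX letters were in a window of 3 effectors (*Gbp2*, *Isg20* and *Oasl2*) and 1 upstream gene (*Stat2*), 12.5% of the 32, against 18.9% of all genes. Of the 23183 genes examined here, 17191 had a window, with ISRE letters in 3.91%, GAS letters in 9.27% and RUNX letters in 16.6%. A match of these letters is a description of the sequence and does not show that a factor binds there.

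The 150 bases before the start of 6 members follow, 5′ to 3′ on the strand of the gene, with ISRE or GAS letters in capitals. *Isg15*, *Ifit1* and *Rsad2* are near 0 and higher in KPRrestored, *Bst2* is expressed with the same letters, *Oasl1* has the largest difference of the expressed members, and *Irf1* has GAS letters.
Isg15 (chr4:156200819-156200968, minus strand, 3 overlapping ISRE matches): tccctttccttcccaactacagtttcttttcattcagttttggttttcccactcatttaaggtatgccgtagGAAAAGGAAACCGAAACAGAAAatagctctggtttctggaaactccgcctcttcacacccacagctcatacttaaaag
Ifit1 (chr19:34640739-34640888, plus strand, 2 ISRE matches): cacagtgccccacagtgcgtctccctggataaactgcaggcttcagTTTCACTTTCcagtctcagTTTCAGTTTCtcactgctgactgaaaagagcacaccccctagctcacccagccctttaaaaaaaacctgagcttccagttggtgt
Rsad2 (chr12:26456453-26456602, minus strand, 1 ISRE match): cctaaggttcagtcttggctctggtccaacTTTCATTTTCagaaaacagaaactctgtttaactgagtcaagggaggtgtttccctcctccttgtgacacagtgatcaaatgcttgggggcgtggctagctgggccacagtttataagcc
Bst2 (chr8:71537473-71537622, minus strand, 1 GAS and 2 ISRE matches, overlapping): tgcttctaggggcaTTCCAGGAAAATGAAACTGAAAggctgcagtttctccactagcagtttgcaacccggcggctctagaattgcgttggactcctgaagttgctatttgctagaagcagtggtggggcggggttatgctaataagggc
Oasl1 (chr5:114923090-114923239, plus strand, no match): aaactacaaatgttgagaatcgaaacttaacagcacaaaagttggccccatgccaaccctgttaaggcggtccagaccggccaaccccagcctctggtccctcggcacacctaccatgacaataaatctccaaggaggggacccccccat
Irf1 (chr11:53769864-53770013, plus strand, 1 GAS match): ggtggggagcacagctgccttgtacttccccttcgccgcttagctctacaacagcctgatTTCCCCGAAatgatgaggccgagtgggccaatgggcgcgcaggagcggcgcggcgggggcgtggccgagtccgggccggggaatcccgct

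The same letters stood before genes of very different levels. The ISRE letters were in a window of 4 of 7 effectors with a mean FPKM of at least 1 and a window, and of 8 of 11 under 1. Counted from the RefSeq transcription start, the ISRE matches of *Isg15* begin at -78, -72 and -66, those of *Ifit1* at -104 and -85, and those of *Bst2* at -130 and -124. *Isg15* and *Ifit1* were under 1 FPKM in both libraries, whereas *Bst2* had 34.9 and 27.6 FPKM. *Oasl1*, with a difference of 0.99, has none of the ISRE, GAS or RUNX letters in its window. *Ifi35*, with a difference of 0.67, has the GAS letters 7 bases after the start and no ISRE letters.

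**Figure D4:**
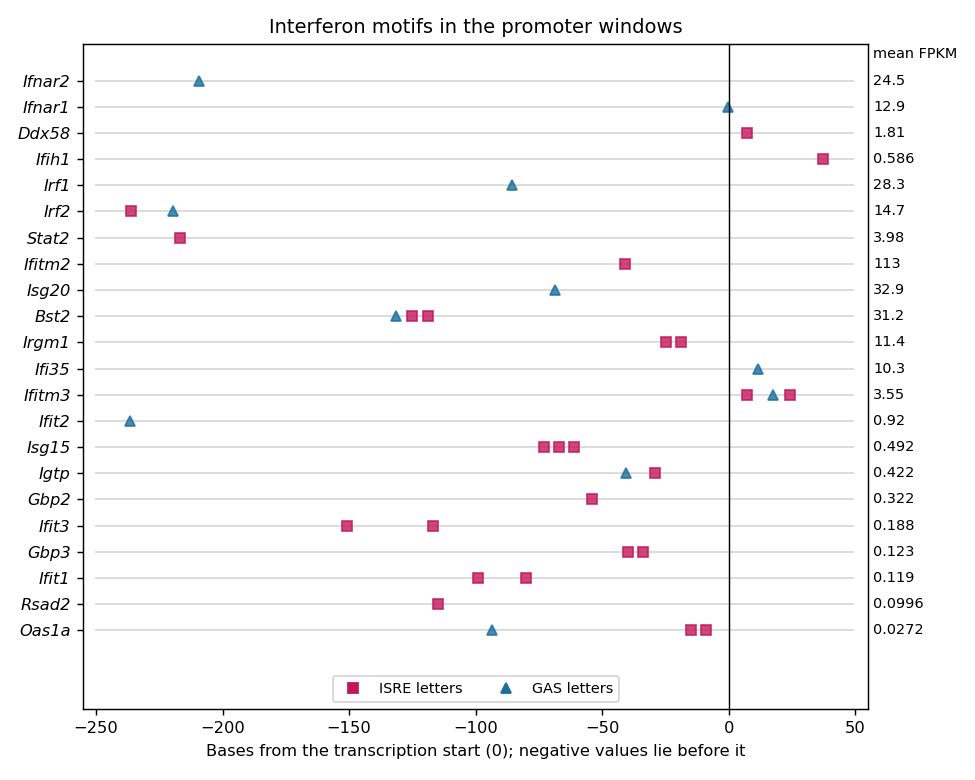
Centers of the ISRE letters (squares) and GAS letters (triangles) in the windows of the 22 members that hold either, in bases from the transcription start, with the mean FPKM of both libraries at the right. Matches lie mostly before the start, in genes from 0.0272 FPKM (*Oas1a*) to 113 FPKM (*Ifitm2*).

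Across all expressed genes with a window, the letters went with little difference between the libraries. The 294 genes with ISRE letters had a median difference of 0.05, with 12.2% higher and 10.9% lower by 0.5 or more, and the 8300 without them had a median of 0.0086, with 11.8% higher and 8.89% lower. The 692 genes with GAS letters had a median of 0.04, with 13.6% higher and 8.67% lower. Of the 7902 without them, 11.7% were higher and 8.99% lower. The 1249 genes with RUNX letters had a median of 0.03, with 13.8% higher and 8.97% lower, against 11.5% and 8.96% of the 7345 without them. These shares are descriptions of 2 libraries.

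Interferon-induced effectors outside the set, 42 genes of which 14 were expressed, included 3 higher and 3 lower by 0.5 or more, against 12.1% and 9.29% of all expressed genes. *Zc3hav1*, which encodes the zinc finger antiviral protein ZAP, had 18.4 FPKM in KPR- and 36.8 FPKM in KPRrestored, a difference of 1.00. *Ifi27* had 2.47 and 6.38 FPKM, a difference of 1.37, and *Adar*, an RNA-editing deaminase, had 10.2 and 15.8 FPKM, a difference of 0.63. An antisense gene covers 16.8% of the exonic bases of *Adar*, and whether the counting used the strand is not given. *Samhd1*, a phosphohydrolase of deoxynucleotides, had 33.5 and 22.5 FPKM, a difference of -0.57, and *Parp12*, an ADP-ribosyltransferase, had 2.04 and 1.32 FPKM, a difference of -0.63. The intervals of these 5 genes lay on 1 side of 0. Over all 86 other pathway genes, 35 were expressed, with a median difference of -0.03, 6 higher and 3 lower by 0.5 or more, beside the same 12.1% and 9.29% of all expressed genes.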

How the data were processed

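Total RNA was selected for poly(A), made into directional libraries and sequenced as paired ends of 100 bases. The authors trimmed the reads, mapped them using TopHat (mm10, per the submitters' processing notes), estimated FPKM using Cufflinks and deposited 1 FPKM value per gene and library, with totals of 521340 (KPR-) and 523647 (KPRrestored). The paper also names a geometric normalization of the read counts using EdgeR. Whether the deposited values carry it is not given, so the fitted depths may include such a scale factor. Tool versions and the annotation are not given in the sources used here. FPKM are not counts and each group has 1 library, so no test between conditions was made.

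The members and lists were chosen with earlier results of these data known. All 38 members are named; of the other pathway genes, the JAK kinases, ligand genes above 0 and the 3 largest differences of log2(FPKM + 1) in each direction are named by rule, except that some genes are not reported here, and the rest (*Socs1*, *Socs3*, *Ptpn2*, *Ticam1*, *Aim2*, *Tlr3*, *Mb21d1*, *Tbk1*, *Ikbke*, *Uba7*, *Ube2l6*, *Herc6*, *Adar*) after their values were seen. The pseudocount was 0.005 and the threshold 0.5, inferred from the log2 values and gene selection that accompany the study's FPKM, since its methods state neither. Fragments were estimated for 21960 genes from the longest GENCODE M21 transcript with a RefSeq counterpart (GRCm38, the same assembly as mm10; longest of all where none has one; the plan named the longest of all, which was run as an alternative) and a mean fragment of 215 bases, both depths being fitted to genes of 1 transcript. Among 576 such genes in KPR- and 597 in KPRrestored with few fragments, 78.1% and 79.9% of the estimates lay within 0.1 of a whole number. They are upper estimates for genes with shorter transcripts. The depth estimate and intervals were tested on simulated data with 1 known transcript length per gene. Such data cannot test the length chosen for genes with more than 1 transcript. Scripts ran in Python 3.11.15 with scipy 1.17.1 for the intervals, pandas 2.3.3 and numpy 2.4.6 for tables and matplotlib 3.10.9 for plots.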

Additional observations from a re-analysis of the deposited data

How the results depend on the processing

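The counts past the threshold depended on the filter on low FPKM, by construction, since a lower filter admits genes of few fragments. At a mean FPKM of 0.1 or more, 6 members were higher and 4 lower, against 2111 and 1776 of all genes. With no filter, 9 of 38 members were higher and 7 lower, against 3193 and 3002 of 23183 genes. At 5 or more, 2 members were higher and 0 lower, against 872 and 641 of all genes. The numbers of genes that pass the filters of 0.1 and 5 are not given here, so those counts cannot be compared as shares. With a threshold of 1, 0 of the 21 expressed members were higher and 0 lower, against 325 and 155 of the 11231 expressed genes. *Oasl1* falls just short of this threshold. Pseudocounts of 0.1 and 1, scaling to equal totals (TPM) or upper quartiles and centring on the median gene left 2 members higher and 0 lower. Of the 11231 expressed genes, these settings gave from 1043 (pseudocount 1) to 1328 (TPM) higher. They gave from 762 (pseudocount 1) to 1174 (upper quartiles) lower, against 1358 and 1043 in the main setting. The median difference of the expressed members ran from 0.090 (pseudocount 1) to 0.13 over these settings and filters. With a pseudocount of 1 the differences of *Ifit1*, *Rsad2* and *Ifit2* shrank to 0.21, 0.19 and -0.48. With the shortest coding transcript the intervals of the members *Ifnar2*, *Irf3* and *Ifit2* held 0. Of the genes named here from outside the set, so did those of *Jak1*, *Tyk2* and *Ikbke*. The main lengths depart from the plan, which named the longest transcript of any kind. That length was run as an alternative after seeing the data and differs for 8 members. With it, the lower limit of *Irf2* was 0.02, so that 12 intervals lay above 0, 4 below and 17 held 0. Counts over all genes with that length are not given here, so these counts cannot be compared as shares. No paired analysis was possible because each group has 1 library.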
